A study of Mus musculus with 48 samples.

Results

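The cytochrome P450 genes of families 1 to 3 were taken as every gene symbol on the array made of Cyp, a family number of 1, 2 or 3, a subfamily letter and a gene number, which gave 55 genes of the 20718 named genes measured. Of these, 3 belong to family 1, 46 to family 2 and 6 to family 3. Where several transcript clusters (the probe sets of one gene) carried one symbol, the one whose mean was highest in that tissue stood for the gene. RNA came from male C57BL/6J mice kept on a 12 hr light and 12 hr dark cycle, and was read on 48 expression arrays, 24 of liver and 24 of a gut sample that the labels call Gut (DI). Recipients ate a normal diet and carried a faecal transplant whose donor had been fed 1 of 3 diets: high fat (HF), ketogenic (KD) or normal chow (NC). Tissue was taken at zeitgeber time ZT12 or ZT0, and each of the 6 groups of a tissue (HF, KD and NC donors at ZT12 and at ZT0) held 4 arrays. The growth protocol also names germ-free male C57BL/6J mice, and does not say which mice were the recipients. The titles give each array of a group its own code and do not state that a code is an animal, so p-values measure only the spread between these arrays, which may be technical.

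Cytochrome P450 enzymes of families 1 to 3 are haem proteins of the endoplasmic reticulum that oxidise drugs, environmental chemicals, steroids, fatty acids and bile acids. They draw electrons from P450 oxidoreductase (Por) and need haem, whose synthesis starts with Alas1. In liver many of them are switched on by the receptors CAR (Nr1i3), PXR (Nr1i2) and AHR, and in mouse liver the clock-driven PAR bZIP proteins DBP, TEF and HLF are known to act on Cyp2a4 and Cyp2a5.

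Values are log2 of the array intensity plus 16, quantile normalised within a tissue, and a difference is on the same log2 scale. A gene was called where limma's adjusted p, over all 20718 genes, was under 0.05. A gene whose mean lay under the median of all genes in its tissue is called dim: 19 of the 55 genes were dim in liver and 38 in gut. The tissues carried most markers of their labels: Alb had a median of 13.85 in liver and 8.78 in gut, and Vil1, a microvillus protein of enterocytes, had 6.61 in liver and 12.40 in gut. Fabp6, the bile acid binding protein of ileal enterocytes, had a median of 6.58 in liver and 13.32 in gut. Of the listed enterocyte markers, Fabp1 (12.65 in liver, 6.99 in gut) and Apoa4 (12.52 and 12.02) were higher in liver, and the others in gut. Of the listed hepatocyte markers, Apoa1 did not differ (13.60 and 13.565), and the others were higher in liver. Median intensity of an array lay between 117.7 and 129.7 in liver and between 157 and 168.1 in gut. Probe sets of near-identical P450 genes, Cyp2a4 and Cyp2a5 among them, may read each other's RNA, so single genes within a subfamily are uncertain. The liver array of KD replicate 7 at ZT0 stood apart: it was the lowest of the 24 liver arrays for 20 of the 55 genes (36.4%), and for 12.5% of all genes. The main liver counts over time are also given without it. In these bulk tissues, fewer cells of a type and less RNA per cell cannot be told apart.

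The promoters of 3 Cyp2a genes are shown because these genes had 3 of the 4 largest time differences in liver. RefSeq's table (GRCm38.p6) held a promoter window for 47 of the 55 genes, running from 250 bases before the gene's start to 50 bases after it. The 250 bases before the start are printed 5′ to 3′ on the gene's own strand. Capitals mark the TATA box (TATAAA) and, in Cyp2a5 and Cyp2a4, a D-box variant (TTATGCAA), which stands there on the opposite strand.
Cyp2a5: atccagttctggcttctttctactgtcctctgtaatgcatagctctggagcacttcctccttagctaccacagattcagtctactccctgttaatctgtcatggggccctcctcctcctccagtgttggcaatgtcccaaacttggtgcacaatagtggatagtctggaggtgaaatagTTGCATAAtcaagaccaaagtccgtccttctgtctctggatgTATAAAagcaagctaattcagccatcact
Cyp2a4: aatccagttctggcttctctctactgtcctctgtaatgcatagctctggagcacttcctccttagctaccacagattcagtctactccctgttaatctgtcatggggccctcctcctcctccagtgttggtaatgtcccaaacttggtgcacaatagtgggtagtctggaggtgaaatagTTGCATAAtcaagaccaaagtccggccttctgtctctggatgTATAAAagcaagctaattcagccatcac
Cyp2a22: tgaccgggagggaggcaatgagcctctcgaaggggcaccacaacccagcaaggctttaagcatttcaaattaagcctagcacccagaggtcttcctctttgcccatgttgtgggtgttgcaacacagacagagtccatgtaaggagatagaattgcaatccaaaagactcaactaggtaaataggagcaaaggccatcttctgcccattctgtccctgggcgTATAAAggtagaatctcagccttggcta
The windows lie on chromosome 7 at chr7:26835089-26835338 (plus strand) for Cyp2a5, chr7:26306942-26307191 (plus strand) for Cyp2a4 and chr7:26939387-26939636 (minus strand) for Cyp2a22. Set against each other with a shift of 1 base, the Cyp2a5 and Cyp2a4 windows were the same at 245 of 249 positions (98.4%). Cyp2a22 matched Cyp2a5 at 30.5% of positions and Cyp2a4 at 30.0%.

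Motifs were searched on both strands of the whole window in all 27025 promoters of the table, and a match is a description of the letters only. The D-box variant TTATGCAA was added after the Cyp2a sequences had been seen, so its matches in Cyp2a4 and Cyp2a5 were known beforehand. It stood in 5 of the 47 P450 promoters (10.64%: Cyp2a4, Cyp2a5, Cyp2b10, Cyp2b19 and Cyp2b23), against 0.792% of all promoters. The windows of Cyp2a4 and Cyp2a5 are also near-identical, so the 10.64% is no measure of enrichment. The variant began 71 bases before the start in Cyp2a5 and 70 bases before it in Cyp2a4. The D-box TTANGTAA stood in 1 P450 promoter (Cyp2c38), against 2.339% of all, and the E-box CACGTG in 1 (Cyp2j6), against 7.241%. The TATA box TATAAA stood in 24 P450 promoters (51.06%), against 14.161% of all. The nuclear receptor half-site AGGTCA stood in 17 (36.17%), against 16.041%, and the core of the xenobiotic response element, GCGTG, in 9 (19.15%), against 32.459%. None of these letters overlap in the printed windows.

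In liver, P450 genes of families 1 to 3 were more often higher at ZT12 than lower. Averaged over donors, 21 of 55 were called, where 28.6% of all genes were. Of these 18 rose at ZT12 and 3 fell, where 14.1% of all genes rose and 14.5% fell. The median difference of the 55 genes was 0.11 and that of all genes 0.01, and 41 of the 55 differences were positive. Cyp2a4 and Cyp2a5 alone differed by more than 1 log2 unit, and the other 53 genes stayed under it. For 5 genes no ZT12 array overlapped a ZT0 array (Cyp2a4, Cyp2a5, Cyp2g1, Cyp2d11 and Cyp2d22), where 2.88% of all genes had no overlap. All 5 were higher at ZT12, where 1.31% of all genes were higher and 1.56% lower without overlap. The 34 genes that were not called lay between -0.18 and 0.22.

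Without the liver array of KD replicate 7 at ZT0, 18 of the 55 genes rose and 3 fell on average, where 17.8% of all genes rose and 16.9% fell, and the median of the 55 was 0.10. In KD recipients 9 then rose and 2 fell, where 5.39% of all genes rose and 6.67% fell. Without it Cyp3a57 differed by 0.45, Cyp3a25 by 0.30, Cyp2e1 by 0.23 and Cyp2c54 by 0.22, all still called by limma. No P450 gene was then called between KD and NC recipients at ZT0, where 0% of all genes were called. The time difference between the tissues was then called for 11 genes. With all arrays it was called for 13 of the 55, where 17.8% of all genes were called. The share of all genes without the array was not computed for that comparison.

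All 4 Cyp2a genes rose, where 14.1% of all genes did. Cyp2a5 (cluster 10551282), a coumarin hydroxylase, had 11.60, 11.60, 11.76 and 11.85 in livers of HF recipients at ZT12, against 9.42, 10.06, 10.15 and 10.45 at ZT0. In livers of KD recipients Cyp2a5 had 11.62, 11.87, 11.87 and 11.91 at ZT12, against 9.27, 10.16, 10.27 and 10.30 at ZT0. In livers of NC recipients it had 11.53, 11.72, 11.88 and 11.93 at ZT12, against 9.91, 9.95, 9.98 and 10.27 at ZT0. Every ZT12 array stood above every ZT0 array, and the donor groups overlapped at each time. The averaged difference of Cyp2a5 was 1.75 (SE 0.11, limma adjusted p = 1.24e-11), a 3.36-fold higher level at ZT12.

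Cyp2a4 (cluster 10551226), a steroid hydroxylase, ran from 11.41 through a median of 11.71 to 11.96 at ZT12, against 8.79, 9.81 and 10.26 at ZT0 (12 arrays each). Its difference was 1.96 (SE 0.13, limma adjusted p = 7.41e-11), 3.88-fold. By donor it was 1.95 in HF, 2.03 in KD and 1.88 in NC recipients, each called. The ZT0 liver of KD replicate 7 had the lowest value of both genes, and without that array the differences were 1.67 for Cyp2a5 and 1.85 for Cyp2a4. Cyp2a22 ran from 7.24 through 7.65 to 8.20 at ZT12, against 6.80, 7.09 and 7.60 at ZT0, so its times overlapped, and it differed by 0.53 (SE 0.11, limma adjusted p = 0.00104). Cyp2a12, a steroid hydroxylase of mouse liver, rose by 0.13.

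**Figure D1:**
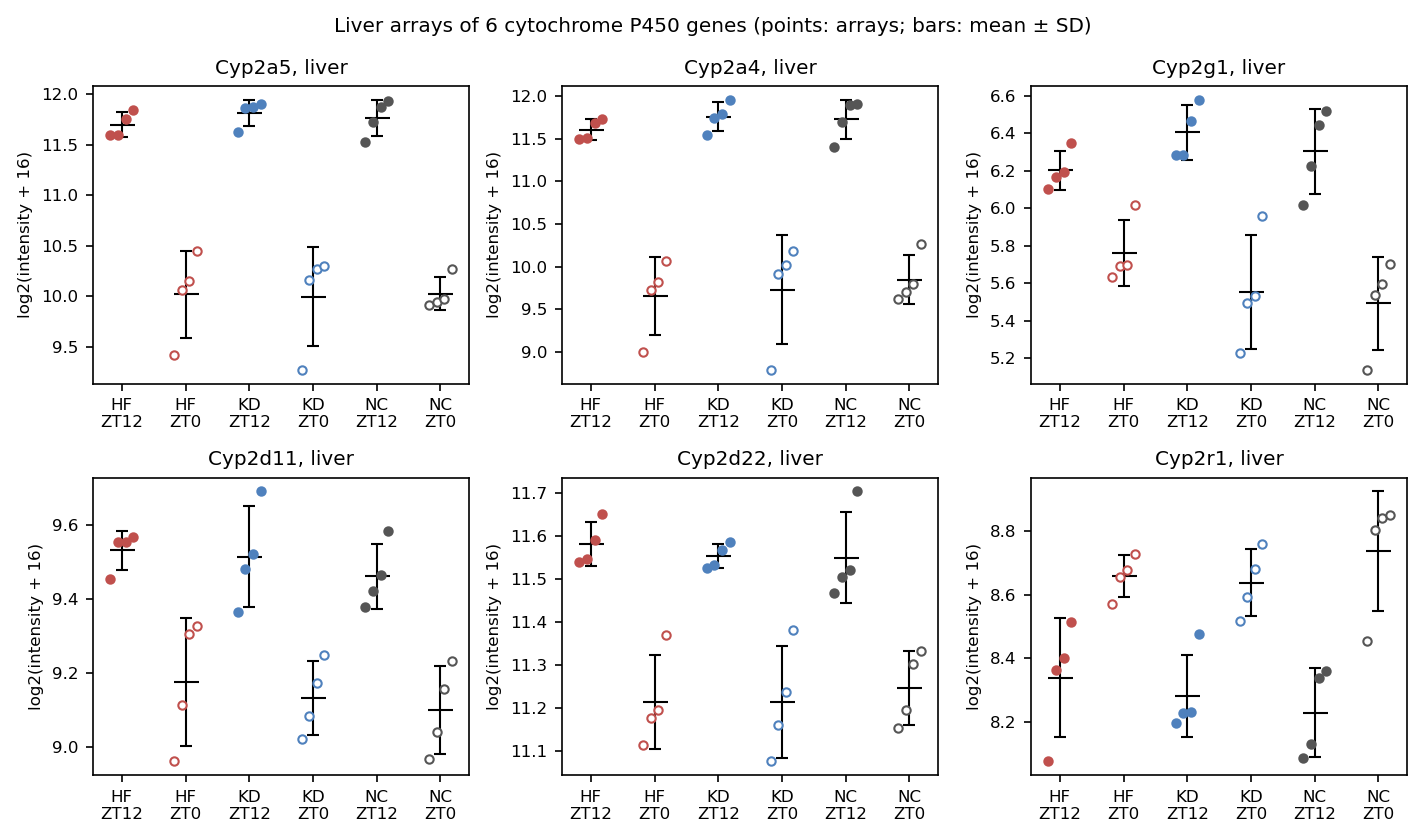
Log2 intensity in each of the 24 liver arrays for 6 P450 genes, by donor diet (HF red, KD blue, NC grey) with ZT12 as filled and ZT0 as open points and bars for the mean ± SD of 4 arrays. Cyp2a5 and Cyp2a4 stand above 11.4 on every ZT12 array and below 10.5 on every ZT0 array, while Cyp2r1 is the gene of the 6 that is lower at ZT12.

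Cyp2g1 (cluster 10551273), known as a steroid hydroxylase of the olfactory mucosa, was dim in liver. It had 6.02, 6.29 and 6.58 as lowest, median and highest ZT12 values, against 5.14, 5.61 and 6.02 at ZT0. The lowest ZT12 array stood above the highest ZT0 array only before rounding. Cyp2g1 rose by 0.70 (SE 0.08, limma adjusted p = 3.44e-07), and by donor the difference was 0.44 in HF, 0.85 in KD and 0.81 in NC recipients. Cyp2g1 lies in the cluster of 13 P450 genes on chromosome 7 with the Cyp2a and Cyp2b genes. In that cluster 5 genes rose and 8 were not called, where 14.1% of all genes rose and 28.6% were called. None of the 5 Cyp2b genes was called. All 5 Cyp2b genes were dim in liver, among them Cyp2b10, the usual marker gene of CAR.

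The Cyp2d genes, which sit together on chromosome 15, had positive differences throughout. Of 9, 6 rose and 3 were not called, where 14.1% of all genes rose, and all 9 differences were positive (0.08 to 0.37). Probe sets of these genes may read each other's RNA, so the 9 may not be separate observations. Cyp2d11 had 9.37, 9.50 and 9.69 as lowest, median and highest at ZT12, against 8.96, 9.14 and 9.33 at ZT0. Its times did not overlap, and it rose by 0.37 (SE 0.05, limma adjusted p = 3.01e-06). Cyp2d22 had 11.47, 11.54 and 11.71 at ZT12, against 11.08, 11.20 and 11.38 at ZT0. Its times did not overlap either, and it rose by 0.34 (SE 0.04, limma adjusted p = 8.87e-07). Cyp2d13, which RefSeq annotates as a transcribed pseudogene, rose by 0.29, Cyp2d34 by 0.27, Cyp2d9 by 0.26 and Cyp2d26 by 0.11.

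Of the 14 Cyp2c genes, which include epoxygenases of arachidonic acid, 3 rose, 1 fell and 10 were not called, and these 4 of 14 are the same share as the 28.6% of all genes called. Cyp2c66 had 9.22, 9.56 and 9.69 as lowest, median and highest at ZT12, against 8.75, 9.25 and 9.42 at ZT0, and rose by 0.32. Cyp2c44 (now Cyp2c23), an arachidonic acid epoxygenase, rose by 0.28, and Cyp2c54 by 0.28. All 3 overlapped between the times. Cyp2c55, dim in liver, had 5.51, 5.76 and 6.08 at ZT12, against 5.45, 6.11 and 6.45 at ZT0, and fell by 0.31 with overlap. Cyp2c38 spread most among arrays of one group, with a within-group SD of 0.67.

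Among the other subfamilies, Cyp1a2, which oxidises caffeine and aromatic amines, had 12.21, 12.34 and 12.50 as lowest, median and highest at ZT12, against 11.75, 12.05 and 12.32 at ZT0. It rose by 0.28, while Cyp1a1, dim in liver, was not called. Cyp2e1, the ethanol-inducible enzyme, had 13.27, 13.35 and 13.42 at ZT12, against 12.89, 13.12 and 13.32 at ZT0. It rose by 0.25 (SE 0.04), and both genes overlapped between the times. Of the 6 Cyp2j genes Cyp2j5, an epoxygenase, fell by 0.16 and 5 were not called, where 14.5% of all genes fell. Cyp2r1 (cluster 10567086), a vitamin D 25-hydroxylase, had 8.07, 8.28 and 8.51 at ZT12, against 8.45, 8.68 and 8.85 at ZT0. The times overlapped by a narrow margin, and Cyp2r1 fell by 0.40 (SE 0.06, limma adjusted p = 9.76e-06).

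Of the 6 Cyp3a genes, which oxidise drugs, steroids and bile acids, 2 rose and 4 were not called, where 14.1% of all genes rose. Cyp3a57 had 9.15, 9.55, 9.64 and 9.69 in HF recipients at ZT12, against 8.67, 8.68, 8.71 and 9.19 at ZT0. In KD recipients it had 9.23, 9.29, 9.52 and 9.85 at ZT12, against 8.44, 8.75, 8.85 and 8.95 at ZT0. In NC recipients it had 8.996, 9.06, 9.12 and 9.19 at ZT12, against 8.60, 8.86, 9.35 and 9.42 at ZT0. The times overlapped by the ZT0 array of 9.19 in HF recipients, were apart in KD recipients and were interleaved in NC recipients. Averaged, Cyp3a57 rose by 0.48 (SE 0.10, limma adjusted p = 0.000525), with 0.70 in HF, 0.73 in KD and 0.03 in NC recipients.

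Cyp3a25 had 11.47, 11.94, 11.97 and 12.01 in HF recipients at ZT12, against 11.18, 11.22, 11.48 and 11.49 at ZT0. In KD recipients it had 11.65, 11.84, 11.93 and 11.96 at ZT12, against 10.85, 11.24, 11.36 and 11.57 at ZT0. In NC recipients it had 11.49, 11.53, 11.63 and 11.66 at ZT12, against 11.33, 11.47, 11.86 and 11.89 at ZT0. Averaged, Cyp3a25 rose by 0.34 (SE 0.08, limma adjusted p = 0.00279), with 0.51 in HF, 0.59 in KD and -0.06 in NC recipients. The difference between donors was tested as the change of the donor difference between ZT12 and ZT0. For KD against NC recipients it was 0.65 in Cyp3a25 (95% interval 0.23 to 1.07, unadjusted p = 0.00374, limma adjusted p = 0.997) and 0.69 in Cyp3a57 (limma adjusted p = 0.997). For HF against NC recipients it was 0.57 in Cyp3a25 and 0.66 in Cyp3a57, both with a limma adjusted p of 1. A time difference that depends on the donor was therefore not called for either gene.

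**Figure D2:**
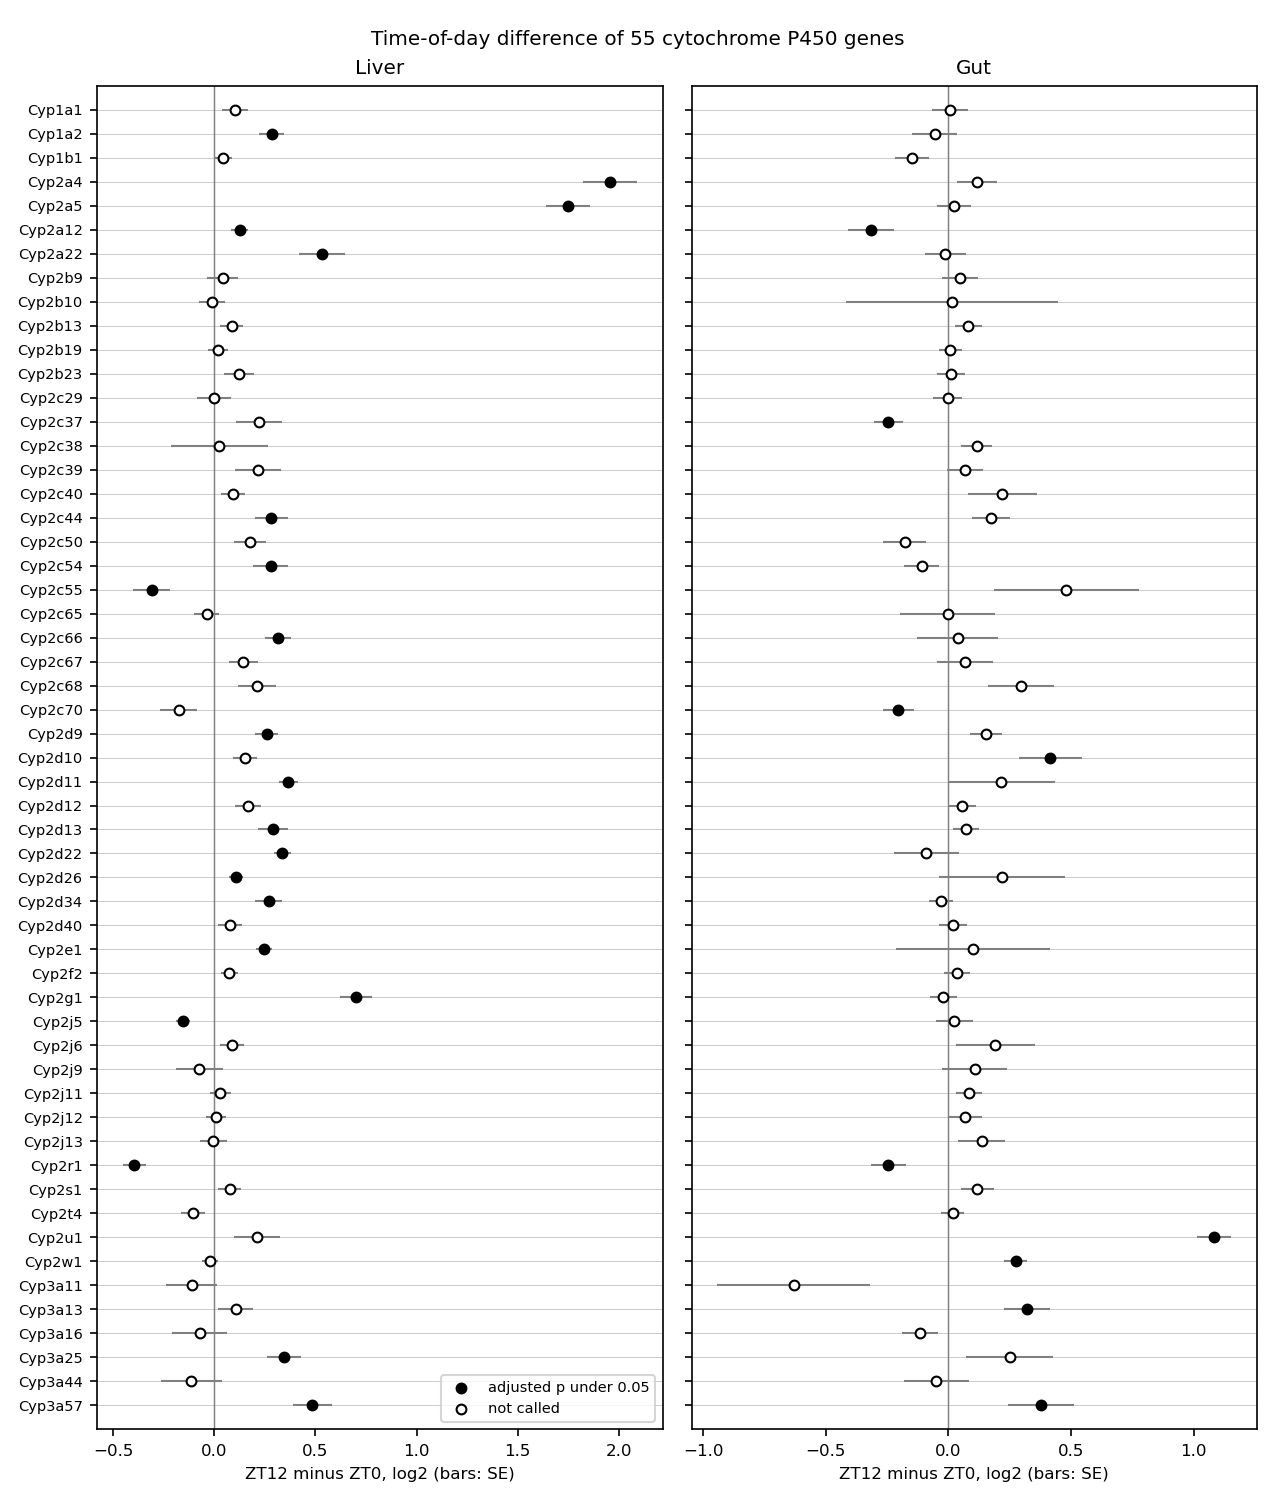
Difference between ZT12 and ZT0, in log2 units averaged over donors, for all 55 genes in liver and in gut, with bars for the SE and filled points for called genes. Cyp2a4 and Cyp2a5 lie near 2 log2 units in liver and near 0 in gut, and Cyp2u1 lies at 1.08 in gut and 0.21 in liver.

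Within single donor groups fewer genes passed. In livers of HF recipients 9 were called, where 7.81% of all genes were: 8 rose and 1 fell, where 3.4% of all genes rose and 4.41% fell. In KD recipients 14 were called (8.67% of all genes): 13 rose and 1 fell, where 3.79% rose and 4.88% fell. In NC recipients 7 were called (9.36% of all genes): 5 rose and 2 fell, where 4.51% rose and 4.85% fell. Cyp2b13, with 0.35 in KD recipients, was called in that group and not on average. Cyp2a4, Cyp2a5, Cyp2d11, Cyp2d22 and Cyp2g1 rose and Cyp2r1 fell in all 3 donor groups. Of the 21 genes called on average, 19 had one sign in all 3 donor groups, and the other two were Cyp2c54 and Cyp3a25. Counts in HF and KD recipients depended on single arrays: 5 genes were called in HF recipients without ZT0 replicate 2, and 9 in KD recipients without ZT12 replicate 8 or 10.

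The electron donor Por and the haem enzyme Alas1 also rose at ZT12 in liver. Of 12 partner genes 4 rose and 1 fell, where 14.1% of all genes rose and 14.5% fell, with a median difference of 0.06. Por ran from 11.44 through 11.66 to 11.91 at ZT12, with a ZT0 median of 9.55, and rose by 2.11 (SE 0.10). Alas1, the first enzyme of haem synthesis, had medians of 12.64 at ZT12 and 10.44 at ZT0 and rose by 2.08. Alad rose by 0.34, Fech by 0.20, and Cyb5b, a cytochrome b5, fell by 0.26.

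Against the same 14.1% of all genes higher and 14.5% lower in liver, 7 of 16 xenobiotic and nuclear receptors rose and 1 fell (median 0.11). Nr1i3 (CAR) rose by 0.92, Nr1i2 (PXR) by 0.76, Rxra, their dimer partner, by 0.47, and Ppara by 0.39. Ahr, the receptor upstream of Cyp1a2, differed by -0.09 and was not called. All 15 clock and PAR bZIP genes were called, 10 higher and 5 lower. Dbp had medians of 10.65 at ZT12 and 6.39 at ZT0 and rose by 4.30, Tef rose by 2.19, and the repressor Nfil3 fell by 1.92. Of 10 growth hormone and sex-biased liver regulators 4 rose and 2 fell, with Onecut1 at 1.38 and Stat5b at -0.46. Of 23 P450 genes of other families 7 rose and 4 fell, led by Cyp7a1, which sets the pace of bile acid synthesis, at 1.63.

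Of 8 hepatocyte markers in liver 0 rose and 3 fell (Fgb, Ambp and Hpx) at ZT12, and their summed intensity ran from 80620 to 84730 at ZT12, against 83660 to 89630 at ZT0. Of 9 pericentral markers 2 rose and 2 fell, and of 10 periportal markers 2 rose and 3 fell. Of 8 endothelial and stromal markers 4 fell (Acta2, Pecam1, Stab2 and Des), with a summed intensity of 1834 to 2191 at ZT12, against 2028 to 2401 at ZT0. Of 6 macrophage and Kupffer cell markers 2 fell (Vsig4 and Clec4f), with sums of 1905 to 3194 at ZT12, against 1945 to 4473 at ZT0. Of 8 lymphocyte markers Ptprc fell, with sums of 526.3 to 608.6 at ZT12, against 519.5 to 642.3 at ZT0. Of the markers of gut cells, 2 of 7 goblet and Paneth cell, 2 of 9 enterocyte and 1 of 5 ileal markers fell and 1 of 7 proximal intestine markers rose, and of 7 pancreatic acinar markers 3 rose, with sums of 970.5 to 1120 at ZT12, against 903.6 to 1146 at ZT0. The part of these markers in the P450 differences was not tested.

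In gut, Cyp2u1 had the largest time difference of the 55 genes. Averaged over donors, 9 of 55 were called, where 20.9% of all genes were. Of these 5 rose at ZT12 and 4 fell, where 11.1% of all genes rose and 9.79% fell, and 6 of the 9 were dim. The median difference was 0.05 for the 55 genes and 0.00 for all genes. Cyp2u1 alone had no overlap between the times, where 1.07% of all genes had none and 0.7% were higher without overlap.

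Cyp2u1 (cluster 10502214), a long-chain fatty acid hydroxylase, had 9.96, 10.23, 10.26 and 10.52 in gut of HF recipients at ZT12, against 9.16, 9.23, 9.33 and 9.41 at ZT0. In gut of KD recipients it had 10.05, 10.25, 10.30 and 10.48 at ZT12, against 8.97, 9.07, 9.09 and 9.48 at ZT0. In gut of NC recipients it had 10.14, 10.15, 10.32 and 10.51 at ZT12, against 8.95, 9.04, 9.20 and 9.25 at ZT0. Every ZT12 array stood above every ZT0 array in all 3 donor groups. The averaged difference was 1.08 (SE 0.07, limma adjusted p = 1.28e-10), a 2.12-fold higher level at ZT12, and Cyp2u1 was called in each donor group. In liver Cyp2u1 had 10.15, 10.40 and 10.83 as lowest, median and highest at ZT12, against 9.32, 10.36 and 10.75 at ZT0, and its difference of 0.21 was not called.

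The other 8 called gut genes moved less. Cyp2d10 rose by 0.42, and Cyp3a57 by 0.38 with a limma adjusted p of 0.0475. Cyp3a13, an intestinal member of its subfamily, had 11.08, 11.30 and 11.66 as lowest, median and highest at ZT12, against 10.28, 11.07 and 11.36 at ZT0, and rose by 0.32. Cyp2w1 had 6.93, 7.13 and 7.39 at ZT12, against 6.64, 6.86 and 6.99 at ZT0, and rose by 0.27. Cyp2a12 fell by 0.31, Cyp2r1 by 0.24, Cyp2c37 by 0.24, and Cyp2c70, which makes muricholic bile acids, by 0.20. All 8 overlapped between the times. Cyp3a57 lost its call in 15 of 24 fits that left out 1 array, with a limma adjusted p of up to 0.0842. It also lost it with an offset of 1 (0.0568) and with limma's intensity trend and robust prior (0.0673). Cyp2c70 lost its call without KD ZT0 replicate 4 (limma adjusted p = 0.0507). Without the quantile step Cyp2c70 (0.134), Cyp2a12 (0.0555) and Cyp2r1 (0.0618) lost theirs. With proximal intestine markers as covariate Cyp2c70 (0.0671) and Cyp2a12 (0.0566) did.

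By donor, 2 genes were called in gut of HF recipients (Cyp2u1 and Cyp2w1), where 3.22% of all genes were called. In KD recipients 3 were called (Cyp2u1, Cyp2w1 and Cyp2r1), where 4.12% of all were, and in NC recipients 1 (Cyp2u1), where 2.36% were. All 9 genes called on average had one sign in the 3 donor groups. In KD and HF recipients single arrays changed these counts: 1 gene was called without any one of KD ZT0 replicate 1, KD ZT12 replicates 10, 12 and 13, HF ZT0 replicates 4 and 5, and HF ZT12 replicates 8 and 12.

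Alb moved with the gut samples' time. It ran from 6.36 through 8.41 to 9.82 at ZT12, against 7.95, 9.51 and 11.82 at ZT0, a difference of -1.34 (limma adjusted p = 0.024). It was the 1 hepatocyte marker of 8 called in gut, and their summed intensity ran from 17690 to 22110 at ZT12, against 16330 to 27300 at ZT0. Apoa1 and Apob had the highest gut medians of the 8 (13.565 and 12.787), and Apoa1 was not called between liver and gut (0.02). The sum therefore does not measure the hepatocyte content of gut. With Alb as a covariate, a fit chosen after seeing the data, Cyp2a12 differed by -0.13 (limma adjusted p = 0.376), Cyp2c70 by -0.09 (0.405) and Cyp2d10 by 0.39 (0.105). The other 6 genes stayed called, with Cyp2u1 at 1.07. Of 9 enterocyte markers 4 rose at ZT12, among them the glucose transporter Slc5a1 by 0.55, with sums of 55360 to 67480 at ZT12, against 46260 to 59790 at ZT0. Of 5 ileal markers 2 rose (Slc10a2 and Slc51a), with sums of 21520 to 29480 at ZT12, against 17790 to 25730 at ZT0. Of 8 endothelial and stromal markers 4 fell (Kdr, Pecam1, Col1a1 and Col3a1), with sums of 7716 to 11140 at ZT12, against 8348 to 12260 at ZT0. Of 6 macrophage markers 2 rose, and of 8 lymphocyte and 7 goblet and Paneth cell markers 0 were called. Beyond fits with Alb, proximal intestine or lymphocyte markers as covariate, the part of these markers in the P450 differences was not tested.

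Among the partner and regulator genes of gut, Por rose by 0.53, and of 12 partner genes 3 rose and 1 fell, where 11.1% of all genes rose and 9.79% fell. None of 16 receptors rose and Nr0b2 fell by 0.20. Of 15 clock and PAR bZIP genes 9 rose and 4 fell, with Dbp at 3.45 and Tef at 2.12. Of 23 P450 genes of other families 4 rose and 1 fell.

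The comparison between tissues used 1 fit over all 48 arrays, quantile normalised together. Of the 55 genes 50 were called, where 83.9% of all genes were. In liver 42 were higher and 8 lower, where 46% of all genes were higher and 37.9% lower. The median liver over gut difference was 2.50 for the 55 genes and 0.04 for all genes, and 17 genes exceeded 16-fold. For 37 genes the 24 liver and 24 gut arrays did not overlap, where 30.6% of all genes did not. For 35 of them every liver array stood above every gut array, where 14.4% of all genes did, and for 2 every liver array stood below, where 16.2% did. Cyp2b9, Cyp2b23, Cyp2j11, Cyp2t4 and Cyp2w1 were not called.

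The 8 genes highest in liver over gut were Cyp1a2, Cyp2a12, Cyp2c50, Cyp2c70, Cyp2j5, Cyp2f2, Cyp2c54 and Cyp2e1. Cyp1a2 had 11.84, 12.32 and 12.52 as lowest, median and highest in liver, against 5.03, 5.57 and 6.17 in gut, a difference of 6.69. The others differed by 6.58 for Cyp2a12, 6.31 for Cyp2c50, 6.29 for Cyp2c70, 6.23 for Cyp2j5 and 6.03 for Cyp2f2. Cyp2c54 differed by 5.83 and Cyp2e1 by 5.45. All but Cyp2e1 were dim in gut. These files carry no detection calls, a gut level may be background, and 16 was added to each intensity, so the 7 differences from dim gut values, and the order of the genes, are not exact.

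The 8 lowest were Cyp2c65, Cyp2s1, Cyp2c55, Cyp3a13, Cyp2b10, Cyp1b1, Cyp1a1 and Cyp2j6. Cyp2c65, an intestinal Cyp2c gene, had 5.11, 5.46 and 5.67 as lowest, median and highest in liver, against 7.67, 8.86 and 9.64 in gut, a difference of -3.45. Cyp2s1, an epithelial form, had 6.62, 7.03 and 7.36 in liver, against 8.97, 9.28 and 9.85 in gut, a difference of -2.27. These 2 did not overlap between the tissues. Cyp2c55 differed by -1.38, Cyp3a13 by -0.91, Cyp2b10 by -0.65, Cyp1b1 by -0.46, Cyp1a1 by -0.29 and Cyp2j6 by -0.22, with overlap. Cyp2c65, Cyp2s1 and Cyp2c55 were dim in liver, and Cyp2b10, Cyp1b1 and Cyp1a1 were dim in both tissues, so the sizes of these 6 differences are not exact either. The difference of Cyp2b10 had a limma adjusted p of 0.00673, beside gut values that ran from 5.26 to 8.93.

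**Figure D3:**
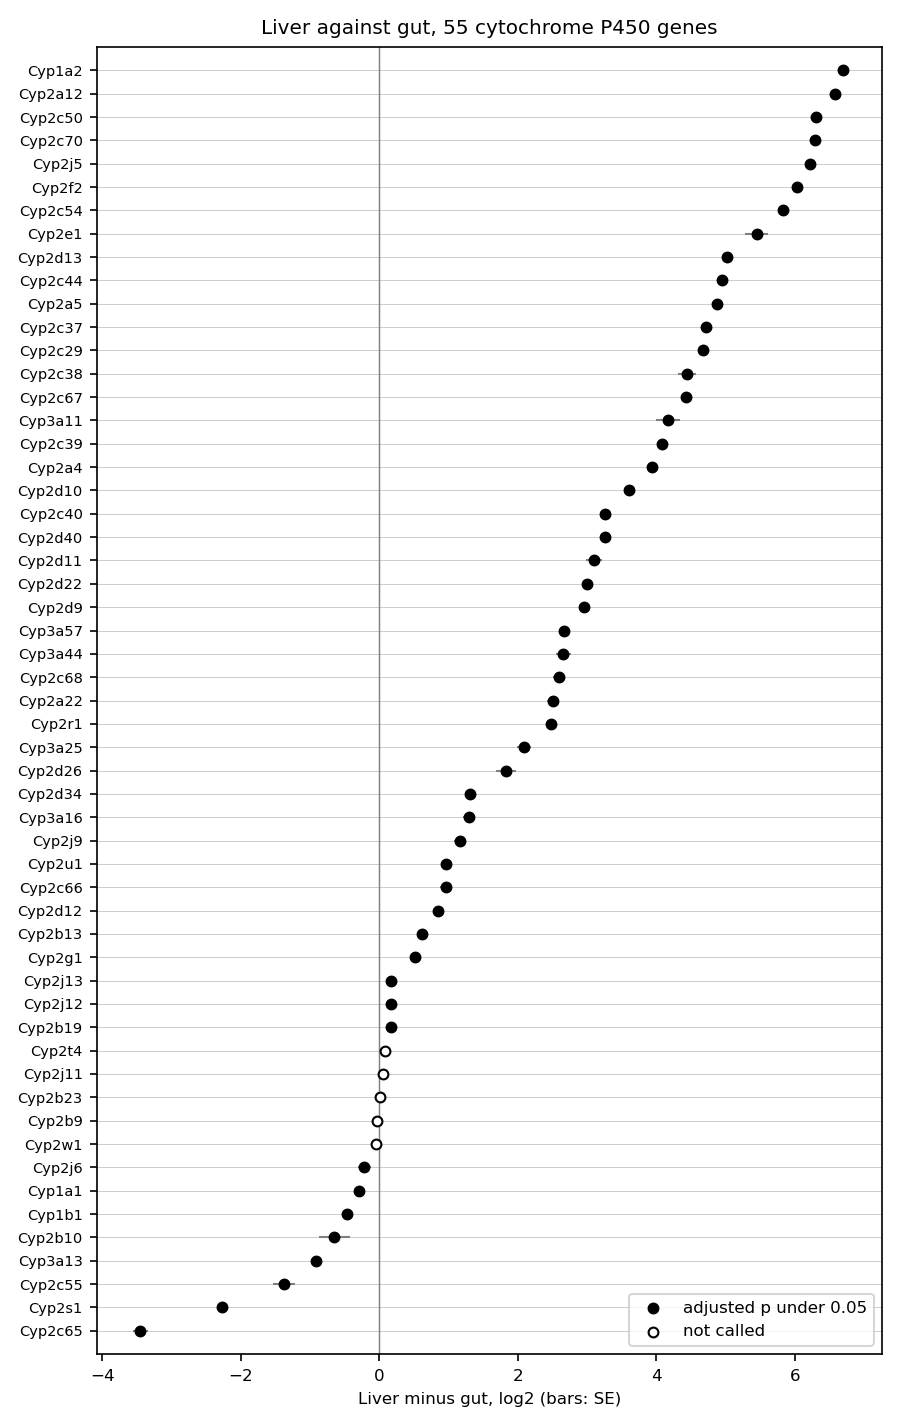
Liver over gut difference in log2 units for the 55 genes, ordered by size, with bars for the SE and filled points for called genes. Cyp1a2 stands at the top with 6.69 and Cyp2c65 at the bottom with -3.45, and 42 genes lie above 0 with a call.

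The time difference itself was compared between the tissues in the same fit. It differed for 13 of 55 genes, where 17.8% of all genes differed. Taken with its sign as liver minus gut, it was positive for 11 of these and negative for 2. Of all genes 8.75% were called positive and 9.05% negative. The liver minus gut value of the ZT12 against ZT0 difference was 1.77 for Cyp2a4, 1.65 for Cyp2a5, 0.56 for Cyp2a22 and 0.41 for Cyp2a12, so all 4 Cyp2a genes were among the 11. All 4 were dim in gut. It was -0.92 for Cyp2u1 and -0.29 for Cyp2w1. Cyp2r1 fell at ZT12 and Cyp3a57 rose at ZT12 in both tissues, while Cyp2a12 rose in liver and fell in gut. These 3 were the genes called in both tissues, of 27 called in either. Their gut calls were weak, and all 3 were dim in gut. Without the quantile step Cyp2a12 and Cyp2r1 lost their gut calls (limma adjusted p = 0.0555 and 0.0618). Cyp3a57 lost its gut call in 15 of the fits that left out 1 array.

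**Figure D4:**
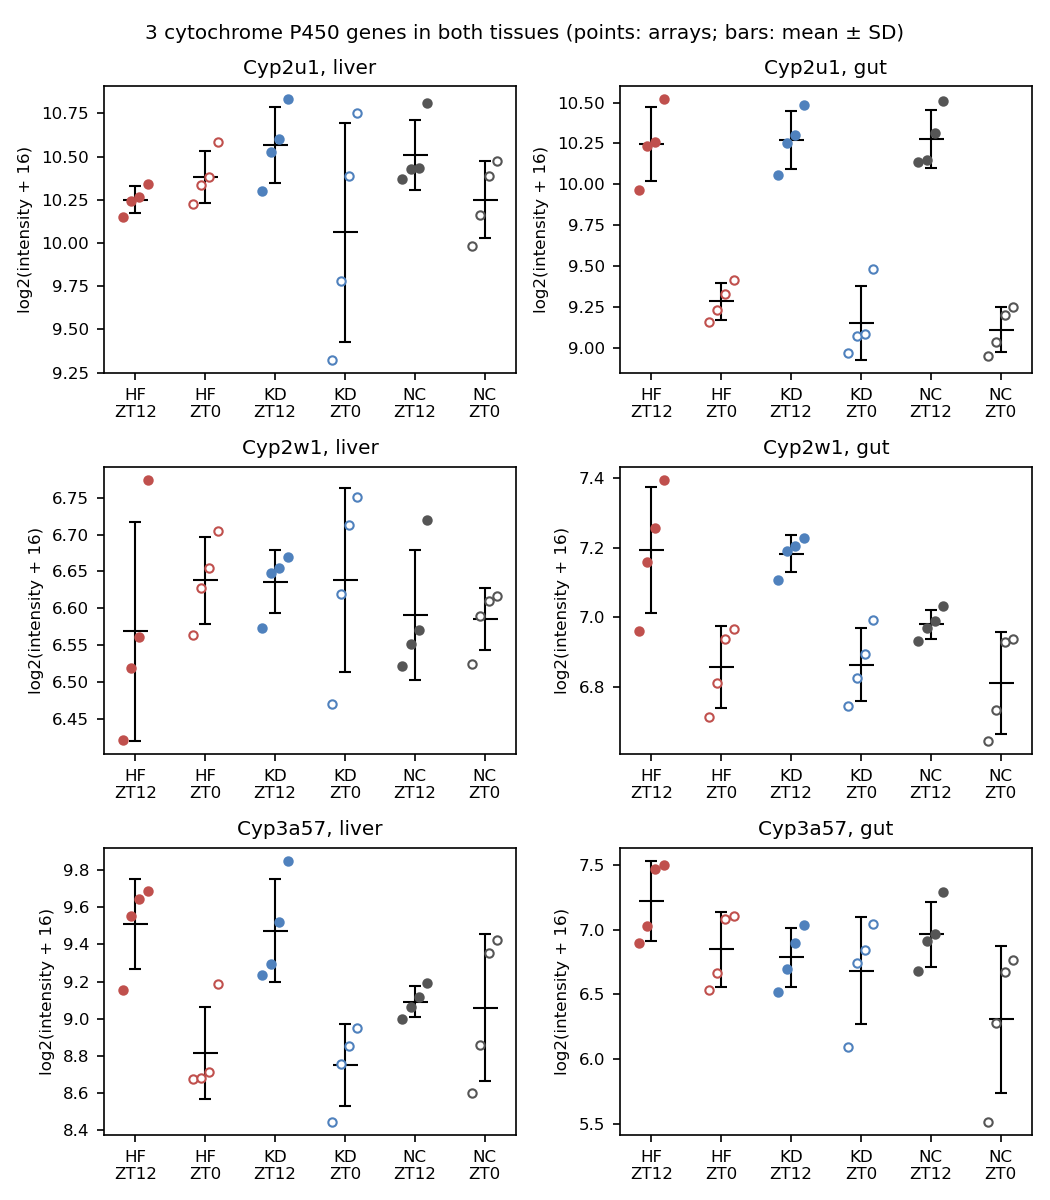
Log2 intensity of Cyp2u1, Cyp2w1 and Cyp3a57 on each array of liver and of gut, by donor diet, with ZT12 filled, ZT0 open and bars for the mean ± SD of 4 arrays. In gut all 12 ZT12 arrays of Cyp2u1 lie above all 12 ZT0 arrays, while in liver the times overlap.

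Donor diet was compared at each time, averaged over times, and as a change between the times. The comparisons with NC recipients share the NC arrays. In liver no P450 gene was called by limma in any of the 10 comparisons, where 0 or 0.00483% of all genes were called. Per comparison 0 to 7 of the 55 genes had an unadjusted p under 0.05, where 462 to 1388 of all 20718 genes did. The authors' deposited p-values, adjusted anew, called 0 P450 genes in the 4 liver tables, where at most 0.0145% of all genes were called, with 0 to 15 of the 55 genes at an unadjusted p under 0.05.

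The smallest unadjusted p-values in liver belonged to few genes. At ZT12 Cyp2b9 had 6.14, 6.25, 6.45 and 6.48 in KD recipients, against 5.38, 6.00, 6.12 and 6.18 in NC recipients, with overlap. Its difference was 0.41 (95% interval 0.13 to 0.68, limma adjusted p = 1). At ZT12 Cyp2b13 had 5.65, 5.71, 5.78 and 6.08 in KD recipients, against 5.28, 5.54, 5.55 and 5.63 in NC recipients. It was 1 of 2 genes, with Cyp3a57, whose KD arrays all stood above the NC arrays at that time, where 2.12% of all genes did. The difference of Cyp2b13 was 0.30 (95% interval 0.09 to 0.51, limma adjusted p = 1). Cyp2b9 and Cyp2b13 were dim and are known for their female-biased expression in mouse liver. At ZT12 Cyp3a57 was 0.42 and Cyp3a44 0.61 higher in HF than in NC recipients (limma adjusted p = 0.979 each). At ZT0 Cyp3a25 differed by -0.38 and Cyp2c50 by -0.33 between KD and NC recipients (0.93 each), and Cyp2j6 by -0.29 and Cyp2c70 by -0.34 between HF and NC recipients (0.976 for Cyp2c70).

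Between HF and KD recipients the smallest p-values were those of Cyp2c29 (0.37) and Cyp2j6 (-0.21) at ZT0, and of Cyp1a1 (0.24) and Cyp2b13 (-0.19) at ZT12. Averaged over times, they were those of Cyp2c39 (0.35) and Cyp2c38 (0.67) for HF against NC, and of Cyp2b9 (0.18) and Cyp2t4 (-0.13) for KD against NC. Intervals were widest where arrays spread most: that of Cyp2c38 ran from 0.06 to 1.27. For Cyp2a5 the change of the donor difference between times was -0.06 for HF (95% interval -0.61 to 0.49) and 0.08 for KD (-0.47 to 0.63), both against NC. Cyp2b13 had 0.43 for KD (limma adjusted p = 0.997).

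In gut the same 10 comparisons called no P450 gene by limma, where 0 or 0.00483% of all genes were called. Of the 55 genes 2 to 7 had an unadjusted p under 0.05, where 776 to 2050 of all 20718 genes did. At ZT0 the smallest p-values were those of Cyp2d40 (0.34) and Cyp1b1 (-0.33) for HF against NC, of Cyp1a1 (0.41) and Cyp2d40 (0.23) for KD against NC, and of Cyp2r1 (-0.45) and Cyp1a1 (-0.29) for HF against KD. At ZT12 they were those of Cyp2w1 (0.21) and Cyp2j11 (0.23) for HF against NC, of Cyp2j13 (0.52) and Cyp2w1 (0.20) for KD against NC, and of Cyp2g1 (0.28) and Cyp3a44 (0.59) for HF against KD. Averaged over times, Cyp2d40 had 0.27 and Cyp2r1 -0.31 for HF against NC (limma adjusted p = 0.354 and 0.383). For KD against NC, Cyp1a1 had 0.27 and Cyp2j13 0.32 (0.546 and 0.566). For the change between the times, Cyp2f2 had 0.32 and Cyp2c29 0.35 for HF (0.999 each), and Cyp2g1 -0.31 and Cyp2j11 0.29 for KD (0.658 and 0.703), each against NC.

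The authors' deposited p-values differed from this in 1 comparison, KD against NC recipients in gut at ZT12. Adjusted anew, they called 9 of the 55 genes, where 2.96% of all genes were called, and 19 of the 55 had an unadjusted p under 0.05. In the other 3 gut tables they called 0 of the 55, where at most 0.936% of all genes were called, with 5 to 15 of the 55 at an unadjusted p under 0.05. In the authors' deposited table the ratio of group means, KD over NC, was 1.61 for Cyp2d11, 1.67 for Cyp2j13, 1.51 for Cyp2d26, 1.49 for Cyp2j6 and 1.47 for Cyp2j9. In the authors' deposited table it was 1.43 for Cyp2c65, 1.34 for Cyp2c67, 1.30 for Cyp2c68 and 1.26 for Cyp2c40.

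The arrays show these differences. At ZT12 Cyp2d11 had 6.87, 7.04, 7.19 and 7.36 in gut of KD recipients, against 6.43, 6.47, 6.64 and 6.66 in NC recipients. Cyp2d26 had 11.27, 11.36, 11.42 and 11.71 in KD recipients, against 10.83, 10.83, 10.87 and 10.93 in NC recipients. Cyp2j13 had 6.27, 6.35, 6.64 and 6.80 in KD recipients, against 5.83, 6.01, 6.03 and 6.10 in NC recipients. The KD arrays stood above the NC arrays for these 3 genes and for 7 others (Cyp2c44, Cyp2c66, Cyp2c67, Cyp2j6, Cyp2j9, Cyp2j11 and Cyp2w1), 10 of 55 in all, where 3.91% of all genes were higher without overlap. A limma fit to these 8 arrays alone called 4 genes (Cyp2d11, Cyp2d26, Cyp2j13 and Cyp2j6), where 2.14% of all genes were called, while the fit over all 6 groups called 0 of the 55. The difference of Cyp2d11 was 0.57 in both, with an SE of 0.10 in the 8 arrays alone and 0.38 over all 6 groups.

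Lymphocyte markers were read in the same samples. The summed intensity of 8 such genes at ZT12 ran from 770.5 to 972.2 in KD recipients and from 817.1 to 2942 in HF recipients, against 2436 to 4772 in NC recipients. The list's median difference was -2.08 for KD and -1.52 for HF, each against NC, with no gene of it called. A fit of KD against NC at ZT12 with lymphocyte markers as covariate was chosen after seeing the data. It called 0 P450 genes, and 42 P450 differences were positive. Without the covariate 0 were called and 35 were positive. Cyp2d11 differed by 0.72 (SE 0.48) with the covariate and by 0.57 (SE 0.38) without it. Beyond fits with these markers as covariate, the part of these cells in the P450 differences was not tested.

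Gut samples of 1 group spread widely for a few genes. The within-group SD of the 55 genes had a median of 0.19 and a highest value of 1.18 in gut, and a median of 0.17 and a highest value of 0.67 in liver. The 6 genes with the highest SD in gut were Cyp2b10 (1.18), Cyp2e1 (0.86), Cyp3a11 (0.85), Cyp2c55 (0.81), Cyp2d26 (0.70) and Cyp2d11 (0.59). Cyp2b10 had 5.37, 6.16, 7.88 and 9.15 in HF recipients at ZT12, so 4 arrays of one group spanned 3.78 log2 units.

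These 6 genes were set against the mean of 7 markers of proximal intestine, which ran from 7.55 to 8.52 over the 24 gut arrays. With the same done for lymphocyte markers, 12 relations were computed. Cyp2b10, the CAR target, had r = 0.797 (permutation p = 2e-05, adjusted 0.00024) and rho = 0.80 (adjusted permutation p = 0.00012). Its r was 0.905 within ZT12, 0.83 within ZT0 and 0.757 without the 2 arrays farthest from the median. Cyp3a11, the main Cyp3a gene of mouse liver and a target of PXR, had r = 0.685 (permutation p = 0.00026, adjusted 0.00156) and rho = 0.665 (permutation p = 0.00055, adjusted 0.0033). Its r was 0.681 within ZT12, 0.61 within ZT0 and 0.586 without the 2 farthest arrays.

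Cyp2d26 had r = 0.489 (adjusted permutation p = 0.0591) and rho = 0.519 (adjusted permutation p = 0.0412), and Cyp2d11 had r = 0.453 (adjusted permutation p = 0.0775). Cyp2e1 had r = 0.141 and Cyp2c55 r = -0.073, which did not pass. Over all 24 arrays no relation with the lymphocyte markers passed, with adjusted permutation p-values of 0.3 or higher. Within ZT12 r with these markers was negative for all 6 genes (-0.444 to -0.261), and within ZT0 it was positive for all 6 (0.521 to 0.718, the highest in Cyp3a11). The values within a time rest on 12 arrays each and were not tested.

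**Figure D5:**
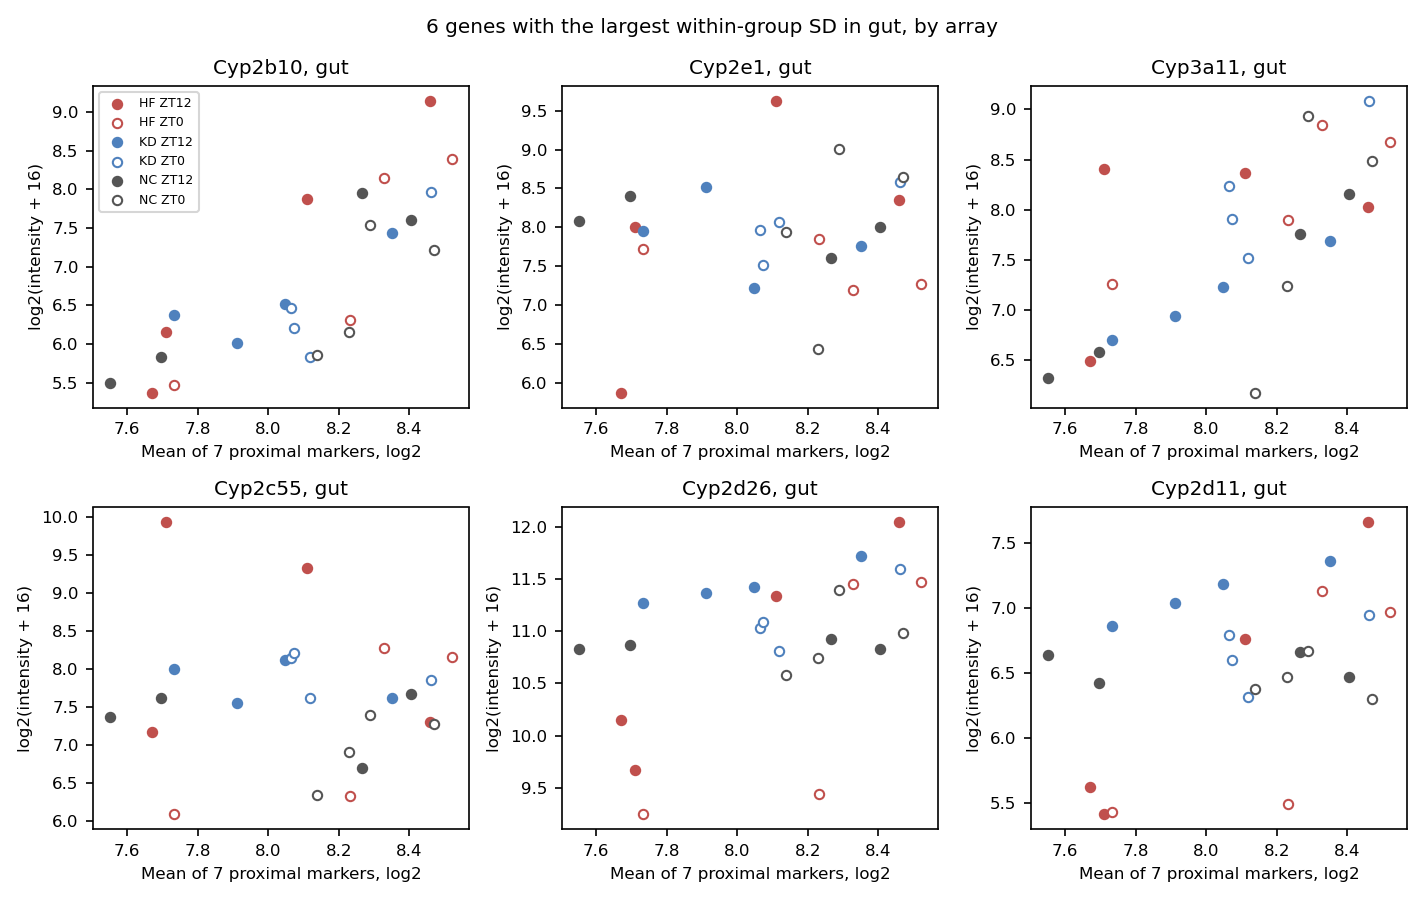
Log2 intensity of the 6 P450 genes with the highest within-group SD in gut against the mean log2 intensity of 7 proximal intestine markers, 1 point per gut array, with ZT12 filled and ZT0 open. Cyp2b10 climbs with the markers (r = 0.797), while Cyp2c55 has no such slope (r = -0.073).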

How the data were processed

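The authors deposited linear intensity for 35556 transcript clusters, made with PLIER per the submitters' processing notes (version not given in the sources used here). They also deposited 8 comparison tables of HF or KD against NC, which per the file headers add gene symbols (23811 clusters), a p-value and a ratio of group means; their intensity values equal those of the value table. The deposited p-values were adjusted anew by the Benjamini-Hochberg method. From the deposited intensity, log2(intensity + 16) was computed and quantile normalised within a tissue (over 48 arrays for comparisons between tissues).

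Contrasts came from limma 3.58.1 under R 4.3.3 (two-sided, empirical Bayes, 6 groups, 18 residual degrees of freedom, threshold 0.05 after Benjamini-Hochberg adjustment over 20718 genes). Correlations used 100000 permutations (scipy 1.17.1). The procedure was tested on simulated data. Arrays give no read depth; the number of arrays limits the precision. Genes named with values were those called over time and the 8 highest and 8 lowest in liver over gut. Also named were the 2 with the smallest p of each donor comparison, and at most 6 called genes per partner, regulator or marker list. Ahr, Cyp1a1 in liver, Cyp2b10 in liver and the correlated gut genes were added after their values were seen. The check by Dixon's limit used at most 16 called genes per tissue, those with the largest time differences. The members and lists were chosen with earlier results of these data known.

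Title numbers were kept as replicate names. In liver 14 pairs of arrays that share a number across groups had a mean correlation of -0.084, and in gut 16 pairs had 0.001. Single pairs ran from -0.328 to 0.152 in liver and from -0.274 to 0.463 in gut. So few pairs cannot decide whether a shared number pairs arrays. Of 33 title codes 15 occur in both tissues; as a random block they had a correlation of 0.029. Alternatives were another offset, no quantile step, dim genes left out, other fits, a replicate block, covariates and each array left out.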

Additional observations from a re-analysis of the deposited data

Results flagged for a closer look

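For each of 150 groups of 4 arrays, the gap of the highest or lowest array to its nearest neighbour was set against the group's range, by Dixon's limit for 4 arrays. By chance about 1 group in 20 has such an array, and 12 were found, all in liver. Cyp2a5 had 11.62 on KD ZT12 replicate 13, where the other arrays had 11.87 to 11.91, and 9.27 on KD ZT0 replicate 7, where the others had 10.16 to 10.30. Cyp2c44 had 12.45 on HF ZT12 replicate 10, above 12.22 to 12.26 on the others. Cyp2c55 had 5.51 on KD ZT12 replicate 12 (others 5.73 to 5.76) and 5.74 on NC ZT0 replicate 5 (others 6.05 to 6.11). Cyp2d11 had 9.46 on HF ZT12 replicate 7, Cyp2d34 had 7.10 on HF ZT12 replicate 9, and Cyp2g1 had 6.02 on HF ZT0 replicate 3. Cyp2r1 had 8.48 on KD ZT12 replicate 10 and 8.45 on NC ZT0 replicate 1. Cyp3a25 had 11.47 on HF ZT12 replicate 13, and Cyp3a57 had 9.19 on HF ZT0 replicate 4.

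The time difference differed between the tissues, by a test of the difference itself, for 13 genes. The liver minus gut value was 1.77 for Cyp2a4, 1.65 for Cyp2a5, 0.75 for Cyp2g1, 0.56 for Cyp2a22, 0.46 for Cyp2c37 and 0.41 for Cyp2a12. It was 0.39 for Cyp2d22, 0.36 for Cyp2c54, 0.33 for Cyp2c50, 0.31 for Cyp1a2 and 0.30 for Cyp2d34. It was -0.92 for Cyp2u1 and -0.29 for Cyp2w1.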

How the results depend on the processing

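Of 1020 recomputed counts of called genes over 30 comparisons, 995 stayed within 1.5 times the reported count. Of 879 recomputed differences of 30 genes, 839 kept their direction and side of the threshold, 38 kept their direction and lost the call, and 2 reversed. With the replicate block, liver called 10 genes on average instead of 21, 4 in HF, 7 in KD and 4 in NC recipients, with Cyp2c55 at 0.59 and Cyp2j5 at 0.071; liver times are joined there only through KD ZT0 replicate 7. No paired analysis was possible because gut numbers do not overlap between the times; this holds for the gut time comparisons. With only the compared groups in the fit, 9 genes were called in liver of KD recipients over time, 1 in gut of HF recipients, and 4 in gut for KD against NC at ZT12, where the authors' p-values called 9. Leaving out dim genes also took dim P450 genes out of the counts, so 17 of the 55 remained in gut. Gut then called 3 on average, 1 in HF and 1 in KD recipients, and liver against gut called 33. Since 6 of the 9 genes called on average in gut were dim, the lower gut count reflects this filter. Among fits chosen after seeing the data, proximal markers as covariate gave 5 in gut of HF recipients and lymphocyte markers gave 1 in gut of KD recipients. With 1 array left out, liver called 21 to 25 on average, 5 to 12 in HF, 9 to 18 in KD and 7 to 9 in NC recipients. Gut called 7 to 10, 1 to 2, 1 to 3 and 1 to 1. Liver against gut called 50 to 51, the time difference between tissues 10 to 14, and every donor comparison 0 to 0. Apart from smaller fits, the cause was not tested. Dim genes, 19 in liver and 38 in gut, limit what low signals can show.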
